A study of Mus musculus with 4 samples.

Results

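The genes described here were 10 members of the MHC class I pathway, taken by symbol from the gene table that is shared by all 4 pools, out of 28692 genes in that table. They were 6 heavy chain genes (H2-K1, H2-D1, H2-Q4, H2-Q6, H2-Q7 and H2-T23), the light chain gene B2m, the transporter genes Tap1 and Tap2, and the regulator gene Nlrc5. All 10 were found once in the table and all 10 passed the filter on low counts over whole pools. Their expression was measured by droplet-based single cell RNA-seq in hematopoietic stem and progenitor cells (HSPCs), sorted from bone marrow as Lin-, Sca1+, cKit+ and Flt3- cells. The study compared 2 pools of young mice (2 to 3 months) with 2 pools of aged mice (17 to 18 months). All mice were males of the C57BL/6-CD45.2 strain, and the cells of 2 or 3 mice were mixed in each pool, so that single animals could not be compared. Pools A of both ages were captured and sequenced in 1 facility and pools B in another, here called platforms A and B. Per the study's methods the letters also mark separate batches of mice, so batch and facility cannot be told apart. The descriptions deposited for young B and aged A name the other age, and the age in the titles and source names was used.

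Every nucleated cell can present peptides of its own proteins on MHC class I molecules, which CD8 T cells and natural killer cells read. The molecule is a heavy chain bound to beta-2 microglobulin. Peptides cut by the proteasome are pumped into the endoplasmic reticulum by the TAP transporter and loaded there. Interferons raise the transcription of the pathway through IRF and other factors, and NLRC5 is a co-activator of class I promoters.

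The heavy chain genes lie in the H2 complex on chromosome 17 (GRCm38). H2-K1 (ENSMUSG00000061232, chr17:33996017-34000347, minus strand) and H2-D1 (ENSMUSG00000073411, chr17:35262730-35267499, plus strand) encode the classical heavy chains of this strain. The Qa genes H2-Q4 (chr17:35379617-35385290), H2-Q6 (chr17:35424850-35430055) and H2-Q7 (chr17:35439155-35443773), all on the plus strand, encode non-classical chains. H2-T23 (chr17:36029773-36032855, minus strand) encodes Qa-1, the ligand of the NKG2A receptor of natural killer cells. Tap1 (chr17:34187553-34197225) and Tap2 (chr17:34203527-34216321) lie in the same complex, with Psmb8 between them. B2m is on chromosome 2 (chr2:122147686-122153083) and Nlrc5 on chromosome 8 (chr8:94434356-94527272). Heavy chain genes are close paralogs, so reads can be lost or assigned to the wrong copy. Of the 403 stretches of 98 bases in the last 500 bases of the longest coding transcript, 0 occurred letter for letter in a transcript of another gene for H2-K1, H2-D1 and H2-Q7, 28 for H2-Q4, 29 for H2-Q6 and 42 for H2-T23. Stretches that differ by a few bases were not counted, so values of single Qa genes remain uncertain.

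Promoter windows of 300 bases (250 before to 50 after the annotated start, RefSeq, GRCm38.p6) were found for 8 of the 10 members. They are shown because 5 heavy chain genes share 1 interferon response element letter for letter, while the other 3 members with a window lack those exact letters. Capitals mark 3 motifs searched on both strands: the kB element (the first 11 capitals in the H2-K1 window), the interferon element (the next 11 capitals there, at -92 from the start), and the IRF repeat, which is TTTC, any 2 bases and TTTC. The kB and interferon elements are 11 letters each of the H2-K1 window itself, a choice that favours matches in its close paralogs. Only exact matches were counted, so sites that differ by a letter are not marked. The windows below are read 5′ to 3′ on the strand of the gene and lie at chr17:34000298-34000597 (H2-K1), chr17:35379367-35379666 (H2-Q4), chr17:35438905-35439204 (H2-Q7), chr17:36032652-36032951 (H2-T23), chr2:122147437-122147736 (B2m) and chr17:34187306-34187605 (Tap1).
H2-K1: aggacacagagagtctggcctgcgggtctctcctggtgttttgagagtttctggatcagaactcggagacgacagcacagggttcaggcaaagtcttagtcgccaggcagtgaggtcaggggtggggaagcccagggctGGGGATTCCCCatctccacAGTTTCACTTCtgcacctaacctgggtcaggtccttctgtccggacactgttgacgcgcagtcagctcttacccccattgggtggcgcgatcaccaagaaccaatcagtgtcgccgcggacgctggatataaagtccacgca
H2-Q4: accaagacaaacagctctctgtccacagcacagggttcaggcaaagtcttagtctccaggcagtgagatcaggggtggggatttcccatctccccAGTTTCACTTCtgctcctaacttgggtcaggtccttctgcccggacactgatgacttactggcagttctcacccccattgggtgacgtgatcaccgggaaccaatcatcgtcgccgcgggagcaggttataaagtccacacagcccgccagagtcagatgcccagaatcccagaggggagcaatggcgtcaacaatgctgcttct
H2-Q7: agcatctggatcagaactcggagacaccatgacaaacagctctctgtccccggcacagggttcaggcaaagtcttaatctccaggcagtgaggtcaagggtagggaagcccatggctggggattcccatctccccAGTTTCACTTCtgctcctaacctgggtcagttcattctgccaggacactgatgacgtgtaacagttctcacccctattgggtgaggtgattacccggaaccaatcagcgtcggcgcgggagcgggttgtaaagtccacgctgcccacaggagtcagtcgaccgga
H2-T23: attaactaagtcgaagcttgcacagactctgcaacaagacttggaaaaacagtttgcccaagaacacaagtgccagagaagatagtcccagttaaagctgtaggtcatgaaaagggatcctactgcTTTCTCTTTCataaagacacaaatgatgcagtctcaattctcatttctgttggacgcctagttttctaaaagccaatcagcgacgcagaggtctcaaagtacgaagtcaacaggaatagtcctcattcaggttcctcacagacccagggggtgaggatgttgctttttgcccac
B2m: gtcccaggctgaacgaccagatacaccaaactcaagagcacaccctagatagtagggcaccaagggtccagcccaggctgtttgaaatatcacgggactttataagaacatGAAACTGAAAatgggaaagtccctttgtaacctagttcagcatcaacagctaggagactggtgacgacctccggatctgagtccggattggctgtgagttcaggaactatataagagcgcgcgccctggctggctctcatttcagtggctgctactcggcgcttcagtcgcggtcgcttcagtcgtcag
Tap1: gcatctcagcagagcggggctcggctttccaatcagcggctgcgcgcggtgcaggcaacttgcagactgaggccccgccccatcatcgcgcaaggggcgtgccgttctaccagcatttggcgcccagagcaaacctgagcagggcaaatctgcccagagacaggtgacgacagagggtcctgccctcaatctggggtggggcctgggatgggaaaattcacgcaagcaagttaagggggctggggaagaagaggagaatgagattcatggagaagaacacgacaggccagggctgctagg

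The exact letters of the interferon element were present in H2-K1, H2-D1, H2-Q4, H2-Q6 and H2-Q7 and in 17 of the 32851 windows of the table (0.0517%). Those of the kB element were found in H2-K1, H2-D1 and H2-Q6 among 10 windows in all (0.0304%). In H2-K1 the kB element lay just before the interferon element. Over 51 bases around the interferon element, H2-K1 and H2-D1 shared 50 bases, and H2-K1 and H2-Q7 shared 43. H2-T23 and B2m held the looser IRF repeat, at -124 and at -139, a motif of 3.44% of all windows. Tap1 held none of these 3 motifs in its window. A CCAAT box (CCAAT, either strand) was found in all 8 windows and in 37.4% of windows of the table, and the letters TGACGC were found in H2-K1, H2-D1 and H2-Q4 and in 7.4%. These matches describe letters in the window and do not show binding.

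The files held 15566 barcodes, of which 14915 cells were kept. The median depth was between 5674 and 6719 UMIs per cell. Per the study's methods, young A and aged B were sequenced to fewer reads per cell than young B and aged A. Read depth thus differed between ages on each platform, in opposite directions. The effect of this on the members was not tested. Kit was between 71.7 and 164 CPM (the UMIs of a gene scaled to equal totals of UMIs per pool) and Ly6a, which encodes Sca1, between 164 and 355 CPM, while Cd3e and Ly6g stayed at or under 0.241 CPM. Flt3, which the sort selects against, was between 2.40 CPM in aged B and 48.0 CPM in young A. Of the kept barcodes, 99 occurred in more than 1 pool. Immunoglobulin RNA was higher in both aged pools, most in aged A. Igkc was at 3143 CPM there against 374, 260 and 1670 CPM in young A, young B and aged B. Its log2 fold change (aged over young) was 2.83 ± 0.26 (SE, adjusted p = 0.0209, edgeR). In aged A, 695 cells passed a gate of B and plasma cell markers against 81, 14 and 56 cells. With the immunoglobulin genes, Jchain and Mzb1 taken out of the list, and fewer of the remaining genes required, there were 43 in aged A. The 2 rules are unlike, and cells past this gate are not described as a cell type.

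In all lists of 4 values the order is young A, young B, aged A and aged B, and in pairs platform A comes first. Over whole pools, none of the 10 members passed the threshold between ages, although 7 of them were higher in the aged pool on both platforms. H2-D1 and H2-T23, a classical and a non-classical heavy chain, had the 2 largest differences. The count of 0 of 10 called members stood against 2.03% of all 13555 genes tested (edgeR's quasi-likelihood test with platform as a block, adjusted p below 0.05). At an unadjusted p below 0.05 there was 1 member, H2-T23, against 16% of all genes, and DESeq2 also called 0 members (2.75% of all genes) with 1 at an unadjusted p below 0.05. In 4 members (H2-D1, H2-Q6, B2m and Nlrc5) both aged pools lay above both young pools, a pattern of 18.1% of all genes. The 7 members higher on both platforms stood against 35.8% of all genes, and the 1 member lower on both, Tap2, against 24.6%. The median log2 fold change (aged over young) of the 10 members was 0.25, and that of all genes was 0.01. Summed pools cannot tell apart more cells that express a gene and more RNA per cell.

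**Figure D1:**
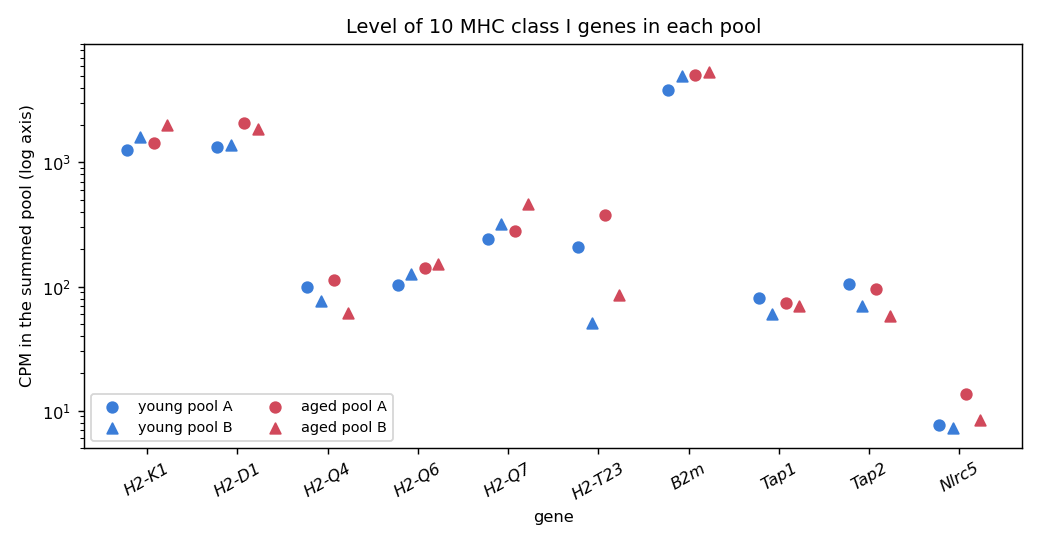
CPM of each of the 10 genes (log axis) in young pools (blue) and aged pools (red), with circles for platform A and triangles for platform B. H2-D1 lay at 2063 and 1861 CPM in the aged pools, above both young pools, and H2-T23 was separated by platform more than by age.

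H2-D1 was measured at 1335 CPM in young A, 1381 in young B, 2063 in aged A and 1861 in aged B. Both aged pools were above both young pools. The ratio of aged to young was 1.54 on platform A and 1.35 on platform B, and the fitted log2 fold change was 0.48 ± 0.25 (SE, adjusted p = 0.453, edgeR). H2-K1, the other classical heavy chain, was at 1252 and 1605 CPM in the young pools, against 1437 and 1988 CPM with age. The groups overlapped, since young B exceeded aged A, with a fitted log2 value of 0.20 ± 0.25 (adjusted p = 0.777, edgeR).

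Among the Qa genes, H2-Q6 was at 102 and 127 CPM in the young pools, against 142 and 151 CPM with age. The groups did not overlap, with a log2 fold change of 0.31 ± 0.17 (adjusted p = 0.482, edgeR). H2-Q7 was at 239 and 321 CPM in the young mice and at 278 and 466 CPM in the aged pools. Its highest value was aged B and the groups overlapped (log2 fold change 0.33 ± 0.22, adjusted p = 0.579, edgeR). H2-Q4 was at 99.1 and 76.9 CPM in the young mice and at 113 and 61.5 CPM in the aged pools. It went in opposite directions on the 2 platforms, with ratios of aged to young of 1.14 on A and 0.80 on B (log2 fold change -0.12 ± 0.18, adjusted p = 0.813, edgeR).

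H2-T23 was at 209 CPM in young A, 50.4 in young B, 378 in aged A and 84.8 in aged B. Both pools of platform A were above both pools of platform B, and the ages overlapped. The ratio of platform A to platform B was 4.15 in young and 4.46 in aged pools, and 7.89% of all genes differed by over 2-fold between platforms in the same direction in both ages. Within platforms the ratio of aged to young was 1.81 on A and 1.68 on B. The fitted value (log2, aged over young) was 0.75 ± 0.17, with a 95% interval of 0.30 to 1.197 before adjustment and an adjusted p of 0.125 (edgeR). The cause of the platform difference was not tested.

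B2m, the light chain shared by all class I molecules, was at 3838 and 4962 CPM in the young pools, against 5074 and 5337 CPM with age. Young pool A was the low value, and the other 3 pools lay close together. The fitted value (log2, aged over young) was 0.20 ± 0.29, with a 95% interval of -0.55 to 0.95 (adjusted p = 0.809, edgeR). Nlrc5 was at 7.74 and 7.32 CPM in young mice and at 13.7 and 8.44 CPM in aged mice. Both aged pools were higher, aged A most (log2 fold change 0.47 ± 0.21, adjusted p = 0.373, edgeR).

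The transporter genes did not share this direction. Tap1 was at 80.3 and 60.2 CPM in the young pools, against 73.2 and 69.3 CPM with age, with the aged pools inside the range of the young pools. Its log2 fold change was -0.02 ± 0.19 (adjusted p = 0.980, edgeR). Tap2 was at 104 and 69.9 CPM in young mice and at 95.003 and 58.3 CPM in aged mice. It was lower in the aged pool of both platforms, the only one of the 10 members with that pattern (log2 fold change -0.25 ± 0.16, adjusted p = 0.554, edgeR).

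Several members turned direction when 1 pool was omitted, a fit that has no platform term. H2-T23 went to -0.45 without aged A and to 1.90 without young A. H2-K1 went to -0.23 without aged B. H2-D1 kept its direction in all 4 fits, between 0.33 and 0.59.

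To see whether the differences were spread over the cells, each cell was thinned to 3000 UMIs. The 230 kept cells with fewer UMIs were left out, 0 in young A, 50 in young B, 176 in aged A and 4 in aged B. Class I RNA was found in nearly every cell. H2-D1 was seen in 97.0% of cells of young A (95% exact binomial interval 96.5 to 97.4%), 97.1% of young B, 98.8% of aged A (98.4 to 99.2%) and 99.0% of aged B. The mean H2-D1 count was 4.10 and 4.32 UMIs per cell in the young pools and 6.26 and 5.67 in the aged pools, and the 10th percentile was 1 UMI in both young pools and 2 in both aged pools. Both aged pools were higher at these points, while for B2m young A stood apart, with a median of 11 UMIs against 15, 15 and 16.

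H2-K1 was seen in 94.99% and 97.9% of cells of the young pools, against 97.1% and 99.1% with age, with means of 3.82, 4.98, 4.38 and 6.04 UMIs. Within each age platform B was above platform A. The share of cells with H2-T23 was 45.6% and 15.1% in the young pools, against 65.6% and 22.7% with age. The variance of H2-T23 was 1.02 to 1.15 times its mean in the 4 pools, and that of B2m 1.71 to 2.16 times. Their means were far apart, 0.17 to 1.15 UMIs for H2-T23 and 11.8 to 16.4 for B2m. These ratios thus do not show which gene varied more between cells. Nlrc5 was seen in only 2.19 to 3.93% of cells. The 10 members together had a median of 22 and 27 UMIs per cell in the young pools and 29 and 30 in the aged pools.

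The shares of 4 members did not overlap between ages at equal depth, and 2 without thinning. The matching share over all genes was not computed, so these counts cannot be called high or low. Exact two-sided permutation of 2 pools against 2 gave no p under 0.333, which is the smallest it can give. Intervals cover counting error only. No cell type in these pools lacks class I genes, so that the share expected from free RNA in the droplets could not be measured.

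**Figure D2:**
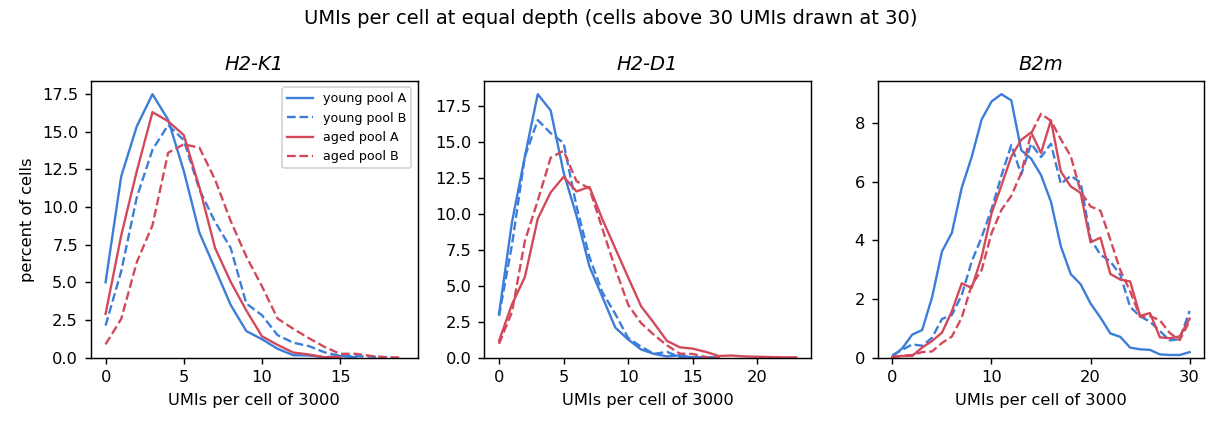
Percent of cells (y axis) by UMIs per cell after thinning to 3000 UMIs (x axis) for H2-K1, H2-D1 and B2m, with blue lines for young pools, red lines for aged pools, solid for platform A and dashed for platform B. The 2 aged pools were shifted to the right for H2-D1, with means of 6.26 and 5.67 against 4.10 and 4.32 UMIs.

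Cells were next divided by gates that use no member gene. A cell entered a gate when at least 3 of 8 marker genes were seen. The HSC list held genes such as Procr and Mecom, the interferon list genes such as Ifit1 and Irf7, and the dividing list genes such as Mki67. Primed gates held erythroid, megakaryocyte, neutrophil and mast cell or basophil genes. Gates are ranges and not types: 910 of the 1512 interferon-marker cells had exactly 3 genes of the list and 2237 cells had 2. Of the 6798 cells past the HSC list, 3705 had exactly 3 genes. The HSC-marker cells tested were also non-primed, that is past no gate of lineage markers, which left 4798 cells.

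Within classes, no age difference of a member passed the threshold, and H2-D1, H2-T23, H2-Q7, B2m and Nlrc5 were positive in every class in which they were tested. Of 118 tests in 12 overlapping sets of cells, 0 were called by edgeR. The share of all genes called was 2.68% in HSC-marker cells, 3.08% in interferon-marker cells and 0.803% in dividing cells. It was 1.52% in non-primed cells outside the HSC gate, 0.854% in non-primed cells outside all gates, 2% outside the interferon gate and 3.94% outside the dividing gate. In primed cells it was 0% (erythroid), 0.494% (megakaryocyte), 0% (neutrophil) and 0.0206% (mast cell or basophil). The last of the 12 sets was the gate of B and plasma cell markers (0.665%). At an unadjusted p below 0.05 there were 12 of the 118 tests. Over all genes there were 1580 of 11811 (HSC), 1504 of 10496 (interferon) and 772 of 10841 (dividing). In the sets outside these gates, in the order above, there were 1402 of 12005, 1284 of 11592, 2064 of 13328 and 2149 of 13331. In primed cells there were 440 of 9137, 771 of 9102, 222 of 9521 and 167 of 4862, and in the B and plasma gate 478 of 6917. Directions are given for 9 classes, without that gate and without the cells outside the interferon gate and outside the dividing gate. H2-D1 was positive in 9 of 9 classes, with log2 fold changes from 0.15 in dividing cells to 0.59 in megakaryocyte-primed cells. Its pools did not overlap between ages in 8 of them. That count was 6 for H2-Q6, 5 for B2m, 4 for Nlrc5, 2 for H2-Q7, 1 for Tap1 and 0 for the rest. The matching share over all genes was not computed within classes, so these counts cannot be called high or low. H2-T23 was positive in 9 of 9 classes (0.37 to 0.86) and B2m in 9 of 9 (0.07 to 0.27). H2-Q4 was negative in 9 of 9 classes and positive in 1 of the 12 sets, the gate of B and plasma cell markers (0.23). Its lowest value, -1.05, was in mast cell or basophil-primed cells, a class of 313 cells in all with few in aged B. The classes share pools and partly share cells, so these counts are not independent. Young and aged cells of a class were not matched in the levels of its marker genes.

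**Figure D3:**
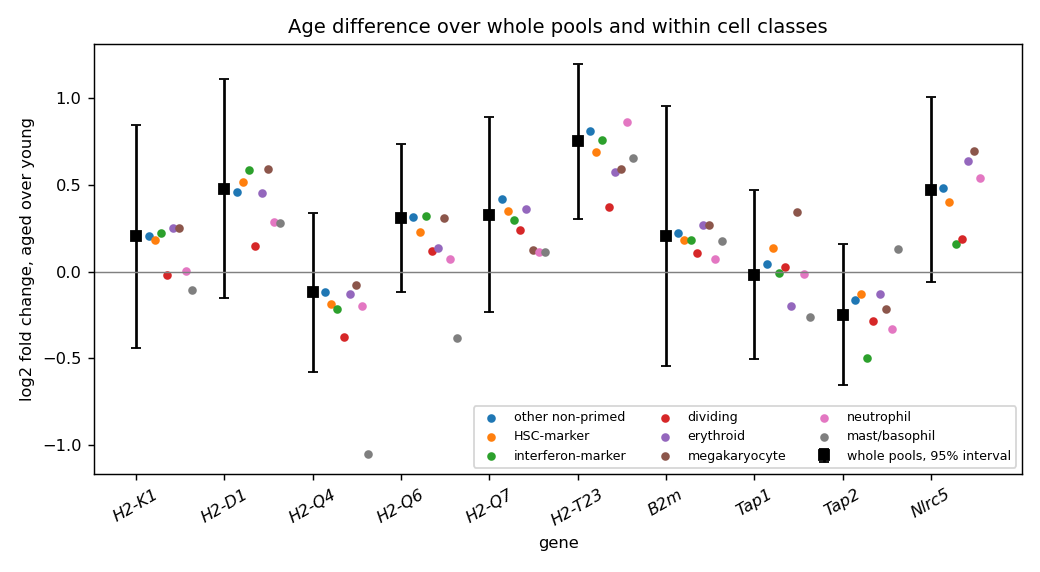
Log2 fold change of aged over young pools (y axis) for each gene, with black squares and 95% intervals (unadjusted) for whole pools and coloured points for 8 cell classes. H2-D1, H2-Q7, H2-T23, B2m and Nlrc5 lay above 0 in every class drawn, and all intervals of whole pools except that of H2-T23 included 0.

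In HSC-marker cells, H2-D1 was at 1440 and 1487 CPM in the young pools, against 2272 and 1974 CPM with age. The aged pools lay above the young pools (log2 fold change 0.51 ± 0.28, adjusted p = 0.528, edgeR). Of the HSC list, Procr and Mecom had log2 fold changes of 0.82 and 0.49 between ages in whole pools (neither called, edgeR). With primed cells included, the gate was passed by 1893 of 5189 and 726 of 2244 kept cells in the young pools. In the aged pools it was passed by 1959 of 3328 and 2220 of 4154. Young and aged cells past this gate may thus differ in make-up, which the tests that use it do not take into account. The effect of this was not tested. The age difference of each member was then compared between HSC-marker cells and the other non-primed cells with a class by age term. None of the 10 members passed, against 0.136% of all genes, and 0 had an unadjusted p below 0.05. For H2-D1 the difference of the 2 age effects was 0.09 ± 0.07 and for H2-T23 it was -0.07 ± 0.10 on the log2 scale. Between interferon-marker cells and all other cells, none of the 10 passed either (0.435% of all genes), with 2 at an unadjusted p below 0.05. Those were Tap2, with a difference of -0.29 ± 0.11 (adjusted p = 0.447, edgeR), and H2-D1, with 0.09 ± 0.04 (adjusted p = 0.712, edgeR).

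More members passed the threshold between interferon-marker or dividing cells and the other cells of the same pools than between ages. The age test compares 2 pools with 2, while the state tests compare cells within pools, so these counts do not rank differences by size. Interferon-marker cells were higher than the other cells for 8 of 10 members, against 2.33% of all genes called higher (edgeR, pool as a block). The 8 were H2-K1, H2-D1, H2-Q4, H2-Q6, H2-T23, B2m, Tap1 and Nlrc5, so that all roles of the pathway were among them. The rises were small next to those of the genes that made the gate. Their median over the 10 members was 0.19 on the log2 scale, below the median of 0.25 between ages, and that of all genes was 0.01.

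H2-K1 was at 1463, 1704, 1604 and 2177 CPM in interferon-marker cells of the young (A, B) and aged (A, B) pools, and at 1229, 1591, 1420 and 1949 CPM in the other cells of these pools. It was higher in 4 of 4 pools, with a log2 fold change of 0.17 ± 0.02 (adjusted p = 8.39e-06, edgeR). B2m was higher in 4 of 4 pools, with a log2 fold change of 0.13 ± 0.02 (adjusted p = 5.26e-05, edgeR). H2-D1 was higher in 3 of 4 pools, since young B had a ratio of 0.998, and its log2 fold change was 0.12 ± 0.02 (adjusted p = 0.00266, edgeR).

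H2-T23 was at 273, 57.6, 469 and 98.9 CPM in interferon-marker cells, in the same order of pools, and at 202, 49.4, 370 and 81.9 CPM in the other cells. It was higher in 4 of 4 pools, on both platforms (log2 fold change 0.34 ± 0.04, adjusted p = 1.21e-06, edgeR). Nlrc5 had the largest value of the 10 members, 0.61 ± 0.14 (adjusted p = 0.00517, edgeR), from 12.7, 11.5, 15.8 and 11.9 CPM against 7.19, 6.73, 13.5 and 7.73 CPM. It was not called with DESeq2 (adjusted p = 0.0916). Tap1 rose by 0.35 ± 0.06 (adjusted p = 0.000101, edgeR), while Tap2 was at 0.13 ± 0.06 and did not pass (adjusted p = 0.251, edgeR). H2-Q4 and H2-Q6 both had a log2 fold change of 0.21, and H2-Q7 just missed the threshold at 0.11 ± 0.03 (adjusted p = 0.0552, edgeR).

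Interferon-marker cells were deeper than the others, with a median of 7307 against 6091 UMIs. They also had a median of 3 HSC-list genes seen against 2, and 10.7% against 12.3% were in the dividing gate. The 2 sides were not matched for cell class. When the gate was called on thinned cells, 9 of 10 members were called, against 6.49% of all genes, and the log2 fold changes of H2-K1, B2m, H2-T23 and Tap1 were 0.23, 0.24, 0.53 and 0.56. With DESeq2, 5 of 10 members were called, against 0.61% of all genes called higher.

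**Figure D4:**
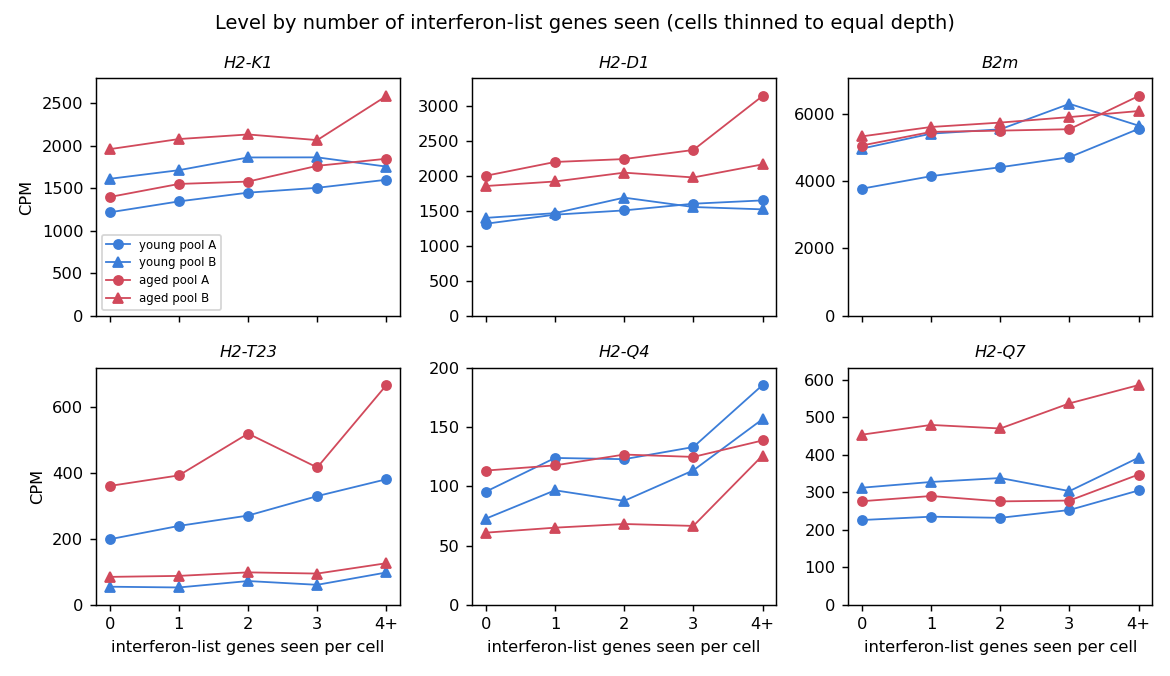
CPM (y axis, from 0) of 6 members in cells with 0, 1, 2, 3 or at least 4 of the 8 interferon-list genes seen (x axis) after thinning to 3000 UMIs, by pool. H2-K1 was at 1217 CPM with 0 genes and 1448 CPM with 2 in young A, and the right-most bin held 24 to 70 cells a pool.

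Levels were also described by the number of interferon-list genes seen. H2-K1 was at 1217 CPM in cells of young A with 0 genes, at 1448 CPM with 2 and at 1600 CPM with at least 4. In aged B it was at 1960, 2133 and 2586 CPM, and in young B at 1611, 1863 and 1755 CPM, so that the last step was down there. Over the 10 members and 4 pools, 35 of 40 values were higher with 2 genes seen than with 0, and H2-K1, H2-D1, H2-Q4, H2-Q6, H2-T23, B2m and Tap2 were higher in all 4 pools. The ratios were small, 1.09 to 1.19 for H2-K1 and 1.16 to 1.44 for H2-T23. This is a description over cells, without a test, and no matching share over all genes was computed. The count of 35 of 40 thus cannot be called high or low. The interferon list itself had 0 of 8 genes called between ages, against 2.03% of all genes. Without any cell in which 1 of its genes was seen, 0 of 10 members and 402 of 12188 genes were called between ages. No member was called with those cells included either, so this run cannot show their part in an age difference.

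In dividing cells B2m, Nlrc5 and the heavy chains other than H2-Q7 were lower. Against all other cells, 7 members were lower and 2 were higher, where 24.8% of all genes were called lower and 25.7% higher. The 2 sides were not matched for cell class. In the 4 primed classes tested, 20.9 to 30.0% of cells were in the dividing gate. The share was 4.94% of HSC-marker cells and 9.69% of other non-primed cells. How much of the difference comes from the mix of classes was not tested. H2-T23 fell by 0.46 ± 0.09 on the log2 scale (adjusted p = 0.000868, edgeR), H2-Q6 by 0.39 ± 0.09 and H2-D1 by 0.29 ± 0.07. H2-D1 was at 1258, 1235, 1394 and 1486 CPM in dividing cells of the young (A, B) and aged (A, B) pools, and at 1362, 1419, 2149 and 1925 CPM in the other cells. It was lower in 4 of 4 pools, more so in the aged pools.

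Tap1 was the member that rose most in dividing cells, by 0.50 ± 0.06 (adjusted p = 5.56e-05, edgeR), and it was higher in 4 of 4 pools. H2-Q7 rose by 0.26 ± 0.07 (adjusted p = 0.00655, edgeR), apart from the other heavy chains. It was higher in 3 of 4 pools, with a lowest ratio of 0.973. Tap2, which pairs with Tap1 in the transporter, was at 0.04 ± 0.06. Dividing cells had a median of 11367 UMIs against 5934. With gates called on thinned cells, 5 of 10 members were called, where 40.9% of all genes were, and H2-K1, H2-D1, H2-Q4 and B2m no longer passed (-0.07, -0.17, -0.04 and -0.09), while Tap1, H2-Q7, H2-Q6, H2-T23 and Nlrc5 did.

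In primed cells the called members were lower than in comparison cells, apart from Tap1. The comparison cells were non-primed cells outside the HSC, interferon and dividing gates, and 20.9 to 30.0% of the primed cells were in the dividing gate. Over the 4 primed classes tested, 19 of 40 member tests were lower and 1 was higher. In erythroid-primed cells 5 members were lower (16.3% of all genes) and Tap1 was higher by 0.43 ± 0.08 (adjusted p = 0.000682, edgeR), where 16.5% of all genes were higher. In megakaryocyte-primed cells 4 members were lower (6.87% of all genes), all by 0.15 to 0.25 on the log2 scale. In neutrophil-primed cells 5 members were lower (6.3% of all genes).

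Mast cell or basophil-primed cells had the largest falls, with 5 members lower (10.2% of all genes). H2-Q6 was at 61.2, 47.5, 46.0 and 39.2 CPM there in the young (A, B) and aged (A, B) pools, and at 107, 141, 160 and 154 CPM in the comparison cells. It was lower in 4 of 4 pools, with a log2 fold change of -1.198 ± 0.17 (adjusted p = 2.20e-06, edgeR). H2-Q4 fell by 0.88 ± 0.19 and H2-K1 by 0.66 ± 0.10 (adjusted p = 7.73e-06, edgeR), and H2-K1 lay between 834 and 1013 CPM in that class in the 4 pools. H2-D1 was at -0.19 ± 0.08 and H2-T23 at -0.01 ± 0.14, and neither passed. This class held 313 cells in all, and 25 in aged B.

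**Figure D5:**
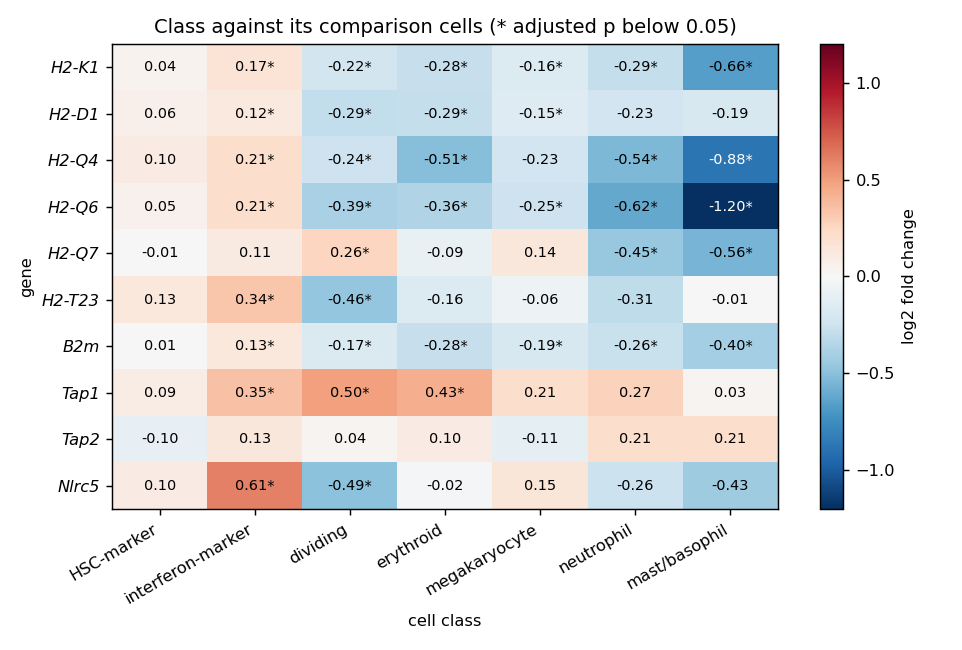
Log2 fold change of each member (rows) in each cell class against its comparison cells (columns), where red is higher, blue is lower and a star marks an adjusted p below 0.05 (edgeR). The 5 stars of the mast cell or basophil class range from -0.40 for B2m to -1.198 for H2-Q6, and Tap1 was the only member starred as higher in a primed class.

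Between HSC-marker cells and the comparison cells, 0 of 10 members were called (3.88% of all genes, edgeR), 2 had an unadjusted p below 0.05, and DESeq2 called 0 (0.798% of all genes). H2-T23 was at 0.13 ± 0.04 (adjusted p = 0.0807, edgeR). B2m was at 0.01 ± 0.02, with a 95% interval of -0.04 to 0.06. With gates called on thinned cells, 4 members passed (10.6% of all genes), and H2-K1, H2-D1, B2m and H2-T23 had values of 0.12, 0.12, 0.08 and 0.19. Thinned cells of all classes, primed and dividing cells included, were also binned by the number of HSC genes seen. H2-K1 with 3 genes was at 1.18 to 1.37 times its level with 0 in the 4 pools, whereas Tap1 was higher in 0 of 4 (ratios 0.783 to 0.964). Between the gates themselves, which held non-primed cells only, Tap1 was higher in HSC-marker cells than in comparison cells in 4 of 4 pools (ratios 1.005 to 1.103). The bins and the gates thus describe different sets of cells. The HSC gate held 12.3% interferon-marker cells and the comparison cells held none by construction. Lymphoid-marker cells (22, 25, 5 and 5 cells in the young (A, B) and aged (A, B) pools) were too few for a test, and their B2m level was 4640, 6084, 7733 and 4601 CPM.

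Other genes of the pathway were described from lists. Between ages in whole pools, 0 of 10 tested other class I genes, 0 of 6 peptide loading genes, 0 of 5 immunoproteasome genes and 0 of 18 regulators were called, against 2.03% of all genes. At an unadjusted p below 0.05 there were 3, 0, 0 and 1. The median log2 fold changes were 0.45, 0.20, -0.14 and 0.05. The largest of the other class I genes was H2-Q2, at 3, 1, 30 and 15 UMIs in whole pools (3.60 ± 0.75, adjusted p = 0.0998, edgeR). H2-T3, chosen after its values were seen, was at 0.384, 1.83, 8.37 and 6.97 CPM (3.04 ± 0.60, adjusted p = 0.0883, edgeR). These came from 14, 30, 174 and 232 UMIs in whole pools, so counts within classes were lower still. Within classes it was the 1 other class I gene called, higher with age in HSC-marker cells (2.69 ± 0.47, adjusted p = 0.0348), in interferon-marker cells (3.83 ± 0.75, adjusted p = 0.0386) and in cells outside the dividing gate (3.02 ± 0.51, adjusted p = 0.0304, all edgeR). In these sets, which share cells, 2.68, 3.08 and 3.94% of all genes were called, in that order. Of the loading genes, Tapbpl, a homolog of tapasin, had the largest value (0.28 ± 0.16). Of the regulators it was Socs1, an inhibitor of interferon signalling (1.04 ± 0.57), and of the immunoproteasome Psmb8, a catalytic subunit (-0.22 ± 0.24).

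In interferon-marker cells, 5 of 5 immunoproteasome genes were higher, where 2.33% of all genes were. They were Psmb8, Psmb9, Psmb10, Psme1 and Psme2, with log2 fold changes of 0.11 to 0.17. Of the regulators, 5 of 18 were higher, among them Irf9 (0.78 ± 0.07) and Irf1 (0.24 ± 0.06), which were named after their values were seen. Among the loading genes 0 of 6 were higher and Calr, a chaperone of the endoplasmic reticulum, fell by 0.17 ± 0.03 (adjusted p = 0.000152, edgeR). In dividing cells, Irf1 fell by 0.88 ± 0.11, and Psmb9, which lies beside Tap1, rose by 0.47 ± 0.06 (adjusted p = 4.68e-05, edgeR).

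Levels of the members were finally compared over 36 sums of 9 gates in 4 pools, as a description with no test, since the sums share pools and cells. The genes most like H2-K1 among 5475 genes were Ifitm3, Tmem176b, Mdfi, Rpl13 and Guca1a (Pearson r from 0.85 to 0.91). Those most like B2m were A630072M18Rik, Anxa5, Ifitm3, H2-Aa and Tmem176a (0.89 to 0.92). Ifitm3 encodes an interferon-induced membrane protein and H2-Aa an MHC class II chain. Among the members, H2-K1 followed B2m (r = 0.87), H2-Q6 (0.84) and H2-Q7 (0.83), and much less H2-D1 (0.49). H2-T23 followed Tap2 (0.74), and both were higher on platform A in both ages. H2-K1, B2m, H2-Q6 and H2-Q7 were all lower on platform A in both ages. For H2-D1 the ratio of platform A to B was 0.967 in young and 1.109 in aged pools. The platform was not taken out of these correlations.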

How the data were processed

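HSPCs were captured with 10x 3′ v2 chemistry. Per the labels, Cell Ranger 2.2.0 was run with GRCm38.p4 (mm10), and the deposited matrices hold UMI counts per gene and cell made by the authors. Cells whose log UMI total lay over 2 SD from the average of the pool were dropped, and no doublet caller was run. Counts were summed per pool, or per pool and class, and tested with edgeR 4.0.16 (quasi-likelihood, R 4.3.3) on all genes with Benjamini-Hochberg adjustment at 0.05, with platform (ages) or pool (classes) as a block. DESeq2 1.42.0 was an alternative. Deviations of pools with the same letter from their group means correlated (r = 0.576 over 13555 genes), and the letters mark a shared facility and, per the study's methods, a shared batch of mice. Kept cells numbered 2244 to 5189 per pool. Each pool mixed cells of 2 or 3 mice, so no p-value measures the spread between mice. P-values of the age tests measure the spread between pools that the platform term leaves. With 4 pools, little is left to estimate it from. Those of the class and class by age tests, with pool as a block, measure how class differences within pools vary from pool to pool. Members and lists were chosen with earlier results of these data known. All members were named, with the 5 genes most like H2-K1 and B2m (mean CPM of at least 20) and the largest value of each list. Fits were also run on simulated counts that, unlike these data, held no platform difference. The outcome is not reported here, so that run does not vouch for the fits. Positions are from GENCODE for GRCm38 and promoters from RefSeq. Values of some list genes are not reported here.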

Additional observations from a re-analysis of the deposited data

How the results depend on the processing

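None of the 10 members was called between ages under any alternative run over whole pools. With no replicate block, 0 members and 0 genes of 13555 were called, with 1103 genes at an unadjusted p below 0.05, and H2-T23 was at 0.74 (log2). Leaving out 1 pool at a time gave log2 fold changes of -0.2289 to 0.5748 for H2-K1, -0.3964 to 0.1392 for H2-Q4, -0.2490 to 0.8303 for H2-Q7, -0.4484 to 1.9046 for H2-T23, -0.0915 to 0.4870 for B2m and -0.1544 to 0.1027 for Tap1. Direction turned without young A (H2-K1 -0.0408, B2m -0.0915, Tap1 0.0720), without aged A (H2-T23 -0.4484, Tap1 0.1027) and without aged B (H2-K1 -0.2289, H2-Q4 0.1392, H2-Q7 -0.2490, B2m -0.0321). H2-D1, H2-Q6, Nlrc5 and Tap2 kept their direction there. Tap1, near 0, was at 0.0345 without TMM scaling, 0.0278 in non-primed cells, 0.0495 in thinned cells and 0.0243 in non-primed cells with a B list without immunoglobulin genes, an alternative chosen after seeing the data. The cause was not tested.

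Over all genes, 275 were called between ages, against 523 with DESeq2, 774 with no filter on low counts, 74 without TMM scaling, 172 in thinned cells and 455 with the changed B list. Without young A, young B, aged A and aged B there were 287, 160, 4 and 0.

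Members called by class moved with the gate, and so did the share of all genes called, given in percent. HSC-marker cells went from 0 (3.88%) to 1 (gate of 4 genes, 5.13%) and 4 (thinned, 10.6%), erythroid from 6 (32.8%) to 2 (gate of 2 genes, 9.65%), megakaryocyte from 4 (15.6%) to 1 (gate of 2 genes, 5.74%) and 2 (DESeq2, 4.69%), neutrophil from 5 (17.9%) to 3 (gate of 2 genes, 12%) and 8 (thinned, 26.1%), and mast cell or basophil from 5 (22.4%) to 3 (gate of 2 genes, 16.5%). Interferon-marker cells went from 8 (5.86%) to 5 (DESeq2, 1.76%), and dividing cells from 9 (50.5%) to 5 (thinned, 40.9%). Members whose shares of cells did not overlap went from 4 to 2 without thinning, a count with no share over all genes beside it.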
